A study of Homo sapiens with 8 samples.

Results

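The 34 genes described here encode relatives of the tumor suppressor p53, inhibitors that hold it in check, and products of its target genes. They were chosen by name, with earlier results of these data known. Each is read from the probeset that the array annotation pairs with that gene alone. Such a probeset was found for 31 of them, out of 18417 genes named in this way, and all 31 passed the filter on low signal, which left 15931 genes. TP63, BTG2 and FDXR were not analysed here. RNA came from spheroids, compact cell aggregates about 300 μm across, of 2 human ovarian adenocarcinoma lines. The OVCAR-8R spheroids (4 arrays, called OVCAR-8C in the sample labels) belong to a line made by raising cisplatin stepwise up to 5 μM, which stayed resistant after the drug was withdrawn. The OVCAR-8 spheroids (4 arrays) belong to the parental, cisplatin-sensitive line, which had no such exposure and which the study describes as mutant for p53. OVCAR-8R is a single derived line, and the sources used here do not say whether cisplatin was present while its spheroids grew. Changes that came with resistance and other changes between these lines cannot be told apart.

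When DNA is damaged, kinases such as ATM and CHEK2 stabilize p53, a transcription factor that binds pairs of a short half-site in the DNA of its targets. The targets stop the cell cycle, repair DNA, limit oxidative stress or start cell death. They also include MDM2 and PPM1D, which switch p53 off again. Many of these genes answer to other factors as well, so their transcripts can change in cells without functional p53. Cisplatin forms crosslinks in DNA, the kind of lesion that activates this pathway in cells with intact p53.

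Windows around transcription start sites were searched for the p53 consensus half-site, whose sequence reads the same way on both strands. RefSeq (GRCh38.p14) gave windows of 250 bases before and 50 bases after the start for 31 of the 34 genes, and GADD45A, TP53INP1 and PHLDA3 had none. An exact half-site lay in a window of PLK2, SESN1, DDB2, AEN and FDXR, or 16.1% of these genes, against 8.06% of all 27305 genes with a window. A longer match was 2 half-sites at most 13 bases apart with 2 mismatches or fewer in all. The fixed C and G of each half-site had to match. Such a match lay in windows of TP73, MDM2, DDB2, AEN and FDXR, also 16.1%, against 3.62% of all genes. The stretches shown are parts of those windows, of 120 bases (30 for DDB2), from PLK2 and SESN1, which changed between the lines, and from MDM2, DDB2 and AEN, which hold the longer match and did not pass the test. Capitals mark the half-sites, and each sequence runs 5′ to 3′ on the strand of the gene.
PLK2 (chr5:58460154-58460273, minus strand, 1 exact half-site): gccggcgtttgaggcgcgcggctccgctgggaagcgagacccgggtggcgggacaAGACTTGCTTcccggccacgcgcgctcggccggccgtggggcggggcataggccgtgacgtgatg
SESN1 (chr6:109008989-109009108, minus strand, 1 exact half-site): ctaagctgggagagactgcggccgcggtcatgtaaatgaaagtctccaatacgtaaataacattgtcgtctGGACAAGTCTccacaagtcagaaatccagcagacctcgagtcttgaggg
MDM2 (chr12:68808873-68808992, plus strand, 2 adjoining half-sites with 2 mismatches): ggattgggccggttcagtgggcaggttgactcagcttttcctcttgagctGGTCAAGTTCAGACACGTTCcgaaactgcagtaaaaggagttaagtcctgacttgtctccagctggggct
DDB2 (chr11:47214974-47215003, plus strand, 2 exact half-sites with 1 base between them): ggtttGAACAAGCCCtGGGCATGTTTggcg
AEN (chr15:88621220-88621339, plus strand, 2 adjoining half-sites with 2 mismatches): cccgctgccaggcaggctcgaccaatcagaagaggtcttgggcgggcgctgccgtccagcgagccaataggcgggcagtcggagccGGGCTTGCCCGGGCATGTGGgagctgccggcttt
A match is a description of the letters and was not tested for binding. SFN, PLK3, TP53I3, E2F7, RPRM, SESN3 and CYFIP2, the other called genes with windows, held neither match in them.

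OVCAR-8R spheroids had higher signals of 6 of the 31 measured genes (19.4%) and lower signals of 4 (12.9%). A call needs a Benjamini-Hochberg adjusted p under 0.05, taken over all probesets that passed the filter, and at least a 2-fold change. Of all 15931 genes, 8.37% were higher and 8.37% were lower by the same rule. The list was chosen with earlier results known, so these shares are given without a test. PLK2, SFN, TP53I3, PLK3, GADD45A and E2F7 rose, and SESN1, CYFIP2, SESN3 and RPRM fell. The median difference of the list was -0.19 on the log2 scale, against -0.01 over all genes. For 21 of the 31 genes (67.7%) the lines did not overlap, 8 of them higher in OVCAR-8R and 13 lower, where 56.8% of all genes did not overlap, 27.3% higher and 29.5% lower. Each difference below is the mean log2 signal in OVCAR-8R less the mean in OVCAR-8 (4 arrays per line), with its standard error and adjusted p from limma in parentheses.

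**Figure D1:**
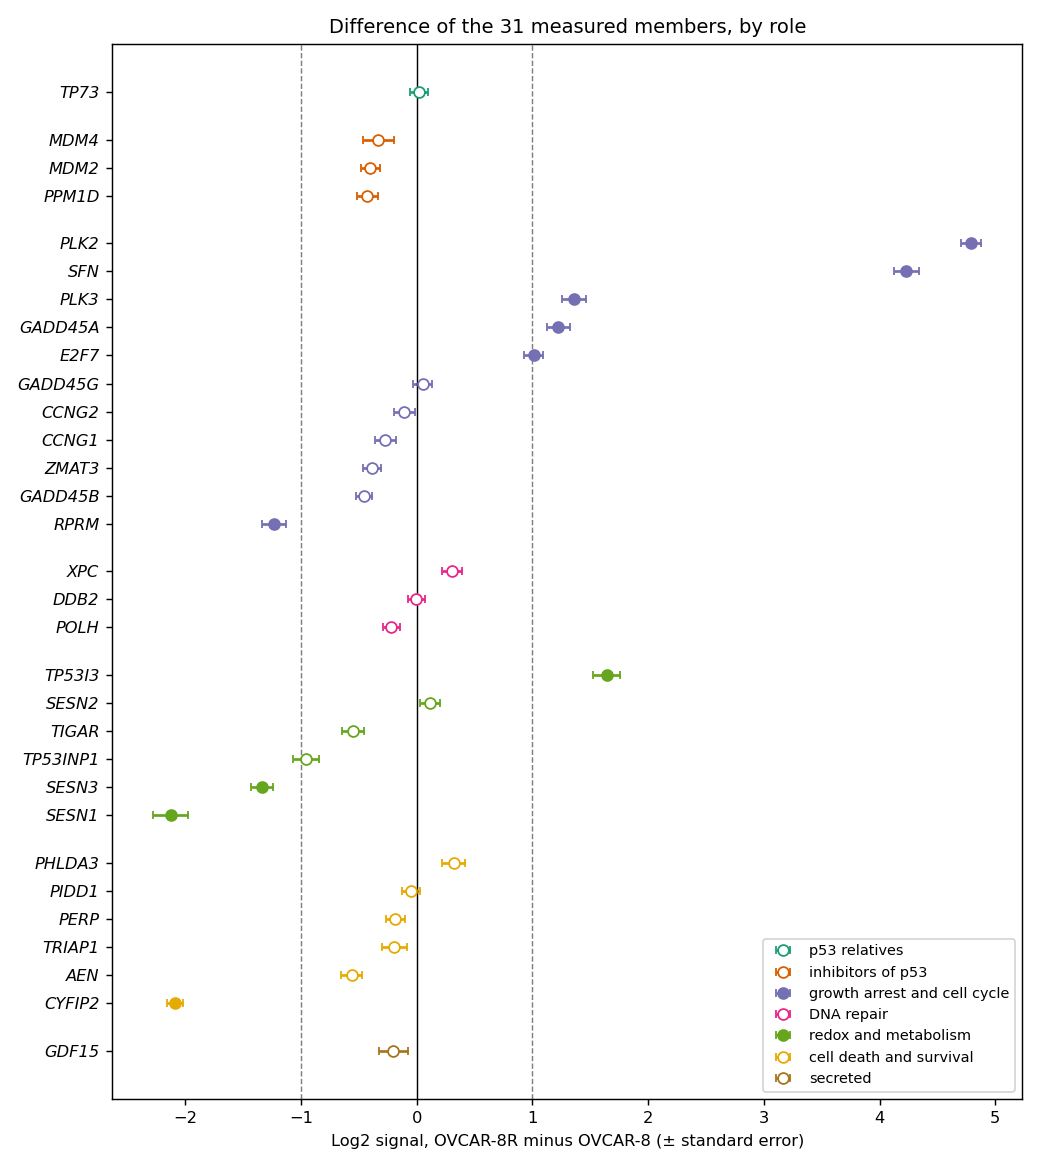
Difference in log2 signal, OVCAR-8R minus OVCAR-8, of the 31 measured genes on the x axis, grouped by role, with bars for the standard error (4 arrays per line). Filled points passed the test, and dashed lines mark 2-fold; PLK2 (4.79) and SFN (4.23) stand apart from the other points, which lie between -2.13 and 1.64.

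OVCAR-8R arrays 1 and 3 deviated from the mean of the line together (r = 0.427 over 25628 probesets), and so did arrays 2 and 4 (r = 0.484). Deviations from a mean of 4 arrays correlate negatively on average by construction, so these positive values stand out and the negative ones are not read. Without arrays 1 and 3, or without arrays 2 and 4, the counts were again 6 higher and 4 lower. The lines also differed in markers of ovarian carcinoma. Of 11 measured, 6 were higher in OVCAR-8R (54.5%) and 1 was lower (9.09%). Of all genes, 8.37% were higher and 8.37% lower, which is the background for each marker list here. PAX8, a lineage factor of Müllerian epithelium, lay between 10.12 and 10.50 in OVCAR-8R and between 6.35 and 6.70 in OVCAR-8, where the median of all probesets was 6.67 to 6.73. KRT7 and MSLN rose by 4.45 and 3.83, and MECOM fell by 2.45. Of the listed markers, PAX8, KRT7, MSLN and EPCAM averaged 10.28, 10.82, 10.29 and 7.89 in OVCAR-8R, against 6.51, 6.36, 6.46 and 5.88 in OVCAR-8. In OVCAR-8 these 4 means were below the median of the arrays, as were those of KRT19 (6.32), MUC16 (5.67) and CDH6 (4.66). KRT8 (9.54), KRT18 (9.53), MECOM (7.12), WT1 (7.05) and SOX17 (7.04) averaged above it in OVCAR-8. In OVCAR-8R, WT1 (6.19), KRT19 (6.40), MUC16 (5.74), MECOM (4.68) and CDH6 (4.60) averaged below the median of the arrays. The arrays of both lines thus lacked a clear signal of some markers of the labelled tissue and held a signal of others. PAX8, KRT7, MSLN and EPCAM were below the median in the arrays labelled OVCAR-8 alone. The study reports that an outside service (ATCC) authenticated its OVCAR-8 lines. Identity was not tested here from the arrays, and the differences here are those between the lines as labelled. The mean log2 signal over the 12 ovarian markers on the arrays was 8.07 to 8.24 in OVCAR-8R and 6.76 to 6.89 in OVCAR-8. Of markers of other cell types, 1 of 6 fibroblast genes was higher (COL1A1, 2.04) and 1 lower (LUM, -1.15), 1 of 6 endothelial genes was higher (TIE1, 1.24), and 1 of 3 leukocyte genes was higher (CD68, 2.52). The mean signal of these lists was 5.79 to 5.93, 5.65 to 5.76 and 5.88 to 6.07 in OVCAR-8R, against 5.56 to 5.73, 5.25 to 5.46 and 5.60 to 5.71 in OVCAR-8. The defining leukocyte marker PTPRC and the fibroblast marker DCN stayed under 4.02 on all 8 arrays, in the lowest quartile of signal of both lines. The part of these marker differences in the results was not tested. In RNA from whole spheroids, fewer cells of a type and less RNA per cell cannot be told apart.

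Growth arrest and cell cycle genes held 5 of the 6 increases. Of 11 measured, 5 were higher (45.5%) and 1 was lower (9.09%), where 8.37% of all genes were higher and 8.37% lower. PLK2, a polo-like kinase that acts on centriole duplication and in the stress response, had log2 signals of 11.94, 12.01, 11.98 and 12.03 in OVCAR-8R and of 7.28, 7.12, 7.02 and 7.38 in OVCAR-8. The OVCAR-8R arrays agreed within 0.1 and all lay far above the highest OVCAR-8 array. The difference was 4.79 (standard error 0.09, adjusted p = 3.02e-10), or 27.6-fold. SFN encodes stratifin, an epithelial protein that keeps the kinase of mitotic entry in the cytoplasm. Its signals were 11.33, 11.26, 11.16 and 11.17 in OVCAR-8R against 7.10, 6.96, 7.22 and 6.73 in OVCAR-8. It rose by 4.23 (0.11, adjusted p = 1.89e-09), an 18.8-fold difference with no overlap between the lines.

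PLK3, a second polo-like kinase, activated by stress, rose less than PLK2. Its signals were 8.20, 8.21, 8.09 and 8.13 in OVCAR-8R and 7.08, 6.61, 6.79 and 6.71 in OVCAR-8, a difference of 1.36 (0.10, adjusted p = 2.37e-06). GADD45A, a small stress protein that binds kinases and the replication clamp, had signals of 10.14, 9.82, 10.16 and 9.88 in OVCAR-8R and of 8.86, 8.66, 8.73 and 8.86 in OVCAR-8. It rose by 1.22 (0.10, adjusted p = 4.42e-06), and the OVCAR-8R arrays 1 and 3 were above arrays 2 and 4. E2F7, an atypical E2F factor that represses cell cycle genes, had signals of 10.12, 10.24, 10.30 and 10.18 in OVCAR-8R and of 9.08, 9.09, 9.28 and 9.33 in OVCAR-8. Its rise of 1.01 (0.08, adjusted p = 4.65e-06) is at the 2-fold threshold. The call of E2F7 was lost without OVCAR-8R array 3 (0.98), OVCAR-8 array 1 (0.97) or OVCAR-8 array 2 (0.98). With treat, a test for more than 2-fold, GADD45A (adjusted p = 0.275) and E2F7 (adjusted p = 1) did not pass.

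**Figure D2:**
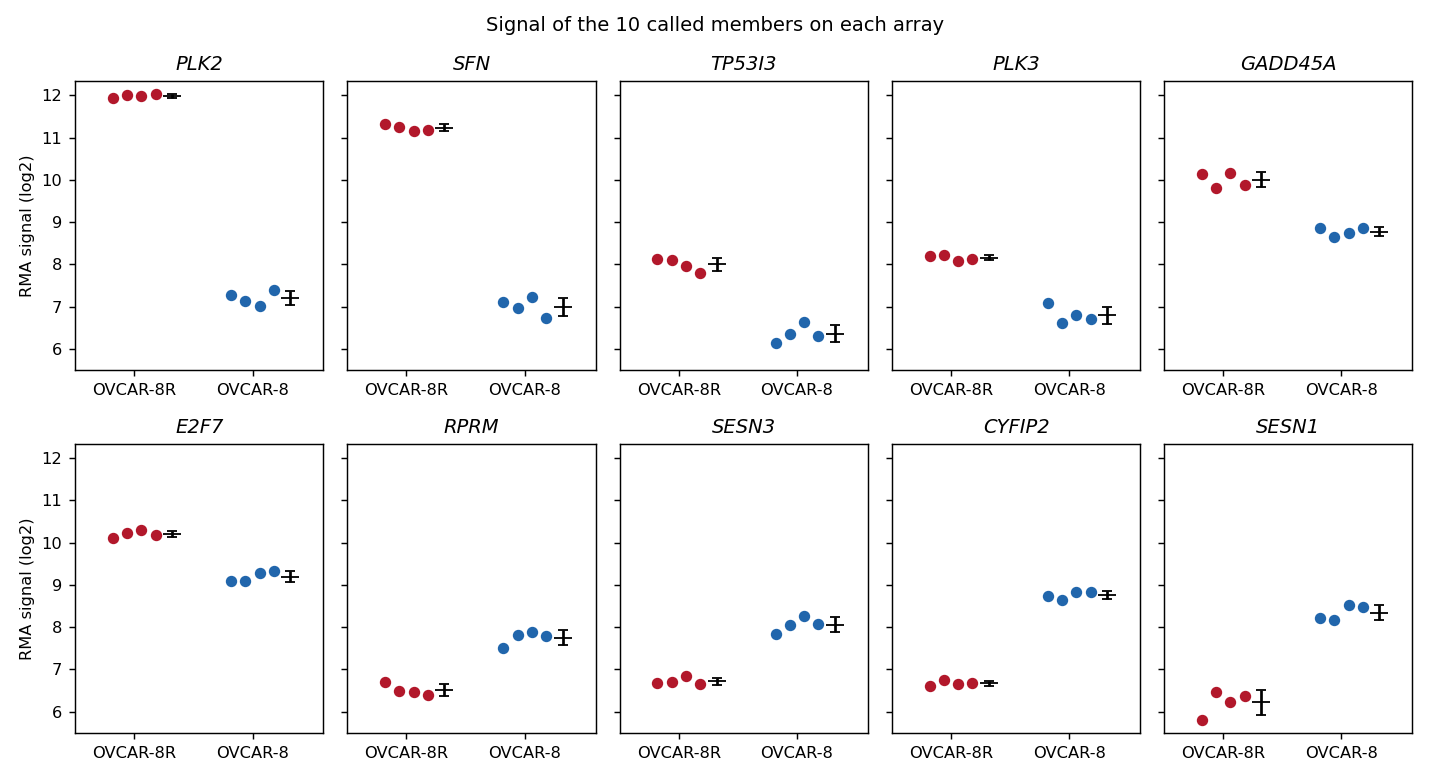
RMA signal (log2, y axis) of the 10 called genes on the 4 OVCAR-8R arrays (red, left) and the 4 OVCAR-8 arrays (blue, right), where black marks give each line's mean ± SD. PLK2 lies at 11.94 or above in OVCAR-8R and at 7.38 or below in OVCAR-8, and in all 10 panels the lines are separated.

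RPRM was the only arrest gene that passed the test with a lower signal. The study took RPRM from these same arrays into an expression signature that it associated with the survival of patients. RPRM encodes reprimo, a protein linked to arrest before mitosis. Its signals were 6.71, 6.49, 6.47 and 6.39 in OVCAR-8R and 7.50, 7.82, 7.89 and 7.78 in OVCAR-8. It fell by 1.24 (0.10, adjusted p = 5.69e-06) and did not pass with treat (adjusted p = 0.272). The other arrest genes did not pass. GADD45B had a difference of -0.46 (0.07, adjusted p = 0.000289), ZMAT3, an RNA-binding zinc finger protein, one of -0.39 (0.08, adjusted p = 0.00163), and CCNG1, a cyclin that guides a phosphatase to MDM2, one of -0.27 (0.09, adjusted p = 0.0306). All of the OVCAR-8R arrays were below the OVCAR-8 arrays for these 3 genes, by less than 2-fold. The adjusted p of CCNG1 was over 0.05 without OVCAR-8R array 1 (0.0803) or 3 (0.0885) or OVCAR-8 array 2 (0.0567), 3 (0.0607) or 4 (0.0725), and its difference was -0.11 under cyclic loess scaling (adjusted p = 0.295). GADD45G and CCNG2 had differences of 0.05 and -0.11 with overlapping arrays.

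Among genes of redox control and metabolism, 1 was higher (16.7%) and 2 were lower (33.3%) of 6 measured. Of all genes, 8.37% were higher and 8.37% lower. TP53I3, which encodes a quinone oxidoreductase, had signals of 8.12, 8.10, 7.97 and 7.81 in OVCAR-8R and of 6.14, 6.36, 6.63 and 6.30 in OVCAR-8. It rose by 1.64 (0.12, adjusted p = 1.59e-06), or 3.12-fold, with no overlap. SESN1 belongs to the sestrins, stress proteins that restrain the growth kinase mTORC1. It had signals of 5.81, 6.46, 6.23 and 6.38 in OVCAR-8R and of 8.21, 8.18, 8.51 and 8.48 in OVCAR-8. SESN1 fell by 2.13 (0.15, adjusted p = 1.45e-06), a 4.37-fold lower signal, and its lowest array in OVCAR-8R was array 1. SESN3, the paralogue that FOXO factors also induce, had signals of 6.69, 6.70, 6.84 and 6.64 in OVCAR-8R and of 7.84, 8.04, 8.27 and 8.08 in OVCAR-8. It fell by 1.34 (0.10, adjusted p = 2.09e-06), and the lines did not overlap. SESN2, the leucine sensor of the family, had a difference of 0.11 (0.09, adjusted p = 0.312), and its arrays overlapped.

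TP53INP1, a stress protein that acts in autophagy and cell death, lay just under the threshold. Its signals were 6.41, 6.23, 6.14 and 6.23 in OVCAR-8R and 7.04, 7.03, 7.43 and 7.33 in OVCAR-8, a difference of -0.96 (0.11, adjusted p = 4.80e-05). It passed without OVCAR-8R array 1 (-1.01), OVCAR-8 array 1 (-1.01) or OVCAR-8 array 2 (-1.02). TIGAR, a phosphatase that lowers glycolytic flux, had a difference of -0.55 (0.10, adjusted p = 0.000785) and did not pass.

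Of 6 genes of cell death and survival, 1 was lower (16.7%, against 8.37% of all genes) and 5 did not pass. CYFIP2, a subunit of the complex that drives actin branching, had signals of 6.60, 6.75, 6.65 and 6.68 in OVCAR-8R and of 8.73, 8.65, 8.83 and 8.82 in OVCAR-8. It fell by 2.09 (0.07, adjusted p = 1.35e-08), a 4.25-fold lower signal, and both lines were tight. AEN, a nuclease induced in apoptosis, had a difference of -0.56 (0.09, adjusted p = 0.000509), and PHLDA3, an inhibitor of AKT, one of 0.32 (0.10, adjusted p = 0.0205). For both genes the arrays were separated, by less than 2-fold. PERP, a tetraspan protein of desmosomes, TRIAP1, a mitochondrial survival protein, and PIDD1, a scaffold for caspase activation, had differences of -0.18, -0.19 and -0.05 with overlapping arrays. GDF15, a secreted stress cytokine, lay between 6.15 and 6.41 in OVCAR-8R and between 6.16 and 6.72 in OVCAR-8, a difference of -0.20 (0.13, adjusted p = 0.220).

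The inhibitors of p53 did not pass the 2-fold threshold. MDM2, the ubiquitin ligase that degrades p53, had signals of 9.52, 9.52, 9.46 and 9.61 in OVCAR-8R and of 9.94, 9.76, 10.08 and 9.93 in OVCAR-8, a difference of -0.40 (0.08, adjusted p = 0.00222). PPM1D, a phosphatase that removes activating marks from p53 and its kinases, had signals of 8.11, 8.47, 8.16 and 8.37 in OVCAR-8R and of 8.70, 8.76, 8.72 and 8.63 in OVCAR-8, a difference of -0.43 (0.09, adjusted p = 0.00322). The lines did not overlap for either gene, although both differences were small. MDM4, the MDM2 partner that masks the activation domain of p53, had a difference of -0.33 (0.13, adjusted p = 0.0650) and overlapping arrays. TP73, the p53 relative p73, averaged 6.95 ± 0.08 in OVCAR-8R and 6.93 ± 0.11 in OVCAR-8 (SD, n = 4 each) with overlapping arrays, a difference of 0.02 (0.08, limma adjusted p = 0.860).

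The repair genes did not pass either. DDB2, which recognizes ultraviolet damage and holds the exact pair of half-sites shown above, had signals of 8.62, 8.65, 8.57 and 8.66 in OVCAR-8R and of 8.66, 8.75, 8.50 and 8.63 in OVCAR-8. The difference was -0.01 (0.07, adjusted p = 0.960) and its sign changed under cyclic loess scaling (0.04) and array weights (0.01). XPC, the damage sensor of nucleotide excision repair, had a difference of 0.30 (0.08, adjusted p = 0.0118), and POLH, the polymerase that copies past cisplatin crosslinks, one of -0.22 (0.07, adjusted p = 0.0323). With the adjusted p under 0.05 alone, whatever the fold, 8 of the 31 genes rose, where 27.6% of all genes did, and 13 fell, where 30.0% did. These counts include POLH and PHLDA3, whose adjusted p reached 0.0909 (POLH without OVCAR-8 array 1) and 0.0601 (PHLDA3 without OVCAR-8R array 3) when single arrays were left out. POLH had a difference of -0.14 under cyclic loess scaling (adjusted p = 0.106).

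**Figure D3:**
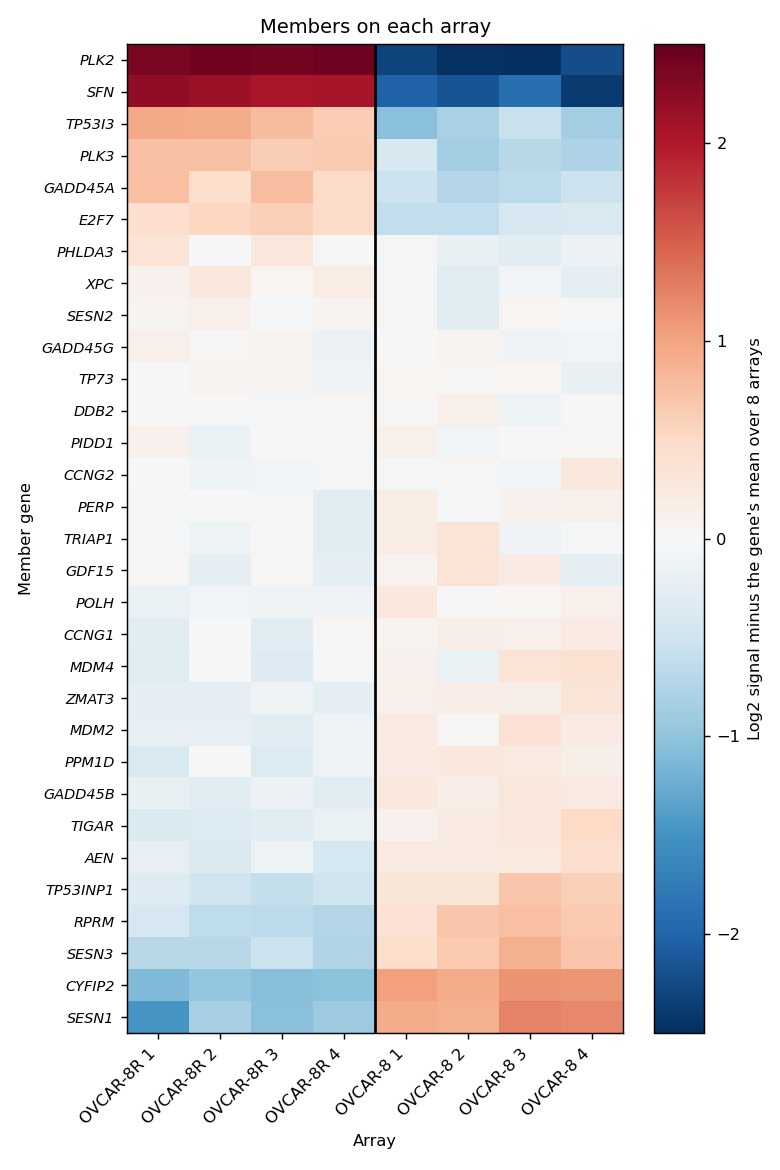
Log2 signal of the 31 measured genes (rows, ordered by difference) on each array (columns, OVCAR-8R left of the line and OVCAR-8 right of it), as the deviation from the mean of the gene over 8 arrays. Red is above and blue is below that mean; PLK2 and SFN have the strongest contrast, and DDB2, PIDD1 and TP73, with differences between -0.05 and 0.02, have little.

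The ratios of paralogues restate the differences above within each array, and they were chosen after those values were seen, so they are given without a test. The log2 ratio of PLK2 to PLK3 averaged 3.83 ± 0.08 in OVCAR-8R spheroids and 0.40 ± 0.23 in OVCAR-8 spheroids (SD, n = 4 each), a change of 3.43. The ratio of GADD45A changed by 1.68 against GADD45B and by 1.17 against GADD45G. For SESN1 against SESN2 the change was -2.24, and for SESN1 against SESN3, which fell too, it was -0.79. MDM2 against MDM4 and CCNG1 against CCNG2 had changes of -0.07 and -0.16. A changed ratio shows that a pair moved unequally, and not which gene moved.

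Kinases, cofactors and ligases that act on p53 were counted next. Of 22 measured genes, 2 were higher (9.09%), 2 were lower (9.09%) and 18 did not pass. These shares are close to those of all genes, of which 8.37% were higher and 8.37% lower. TP53BP2, a cofactor that directs p53 to death genes, rose by 1.50 (0.08), and HIPK2, a kinase that phosphorylates p53 after damage, by 1.29 (0.12). The damage kinase genes ATR and CHEK2 fell by 1.18 (0.11) and 1.17 (0.10). The list had a median of -0.12. Among 36 other reported p53 targets, 5 were higher (13.9%), 4 were lower (11.1%) and 27 did not pass, with a median of 0.28. DRAM1, a lysosomal membrane protein of autophagy, rose by 4.04 (0.13), the cytokine gene LIF by 2.55 (0.11) and the lipid kinase gene DGKA by 1.62 (0.10). ATF3, a stress-induced factor, fell by 1.79 (0.13), and the F-box gene FBXO22 and the helicase gene ASCC3 had differences of -1.59 (0.10) and -1.36 (0.09). CDKN1A, the cell cycle inhibitor p21 and the best known p53 target, was looked up after the results were seen and had a difference of 0.61 (0.11, adjusted p = 0.00109).

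Genes that p53 represses by way of p21 and the DREAM complex, which drive division, were lower for 3 of 20 and higher for 0, and 17 did not pass. At an adjusted p under 0.05 and any size, 2 were higher and 13 of 20 were lower, where 27.6% of all genes were higher and 30.0% lower. At 2-fold, 8.37% of all genes were lower. CENPF, a kinetochore protein, fell by 1.64 (0.08), the mitotic kinase gene CDK1 by 1.08 (0.13) and its phosphatase CDC25C by 1.05 (0.09). The median of this list was -0.31.

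**Figure D4:**
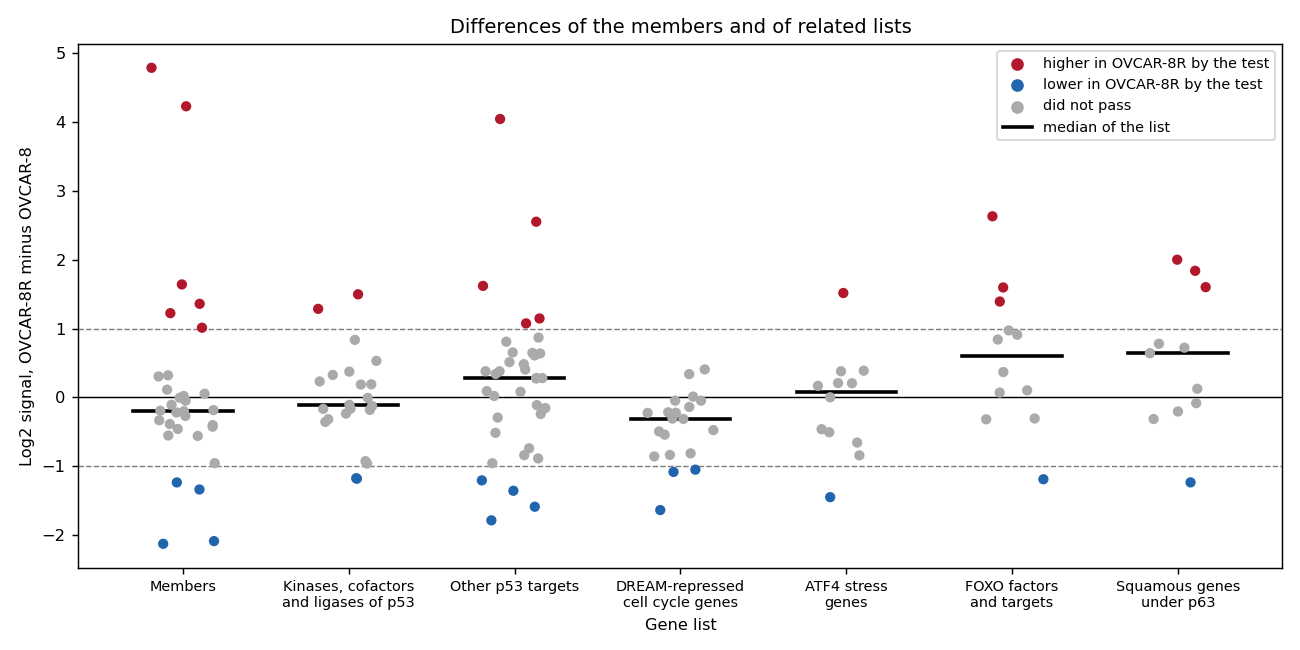
Log2 difference, OVCAR-8R minus OVCAR-8 (y axis), of each measured gene of the p53 list (Members) and of 6 related lists (x axis), with red points higher and blue points lower by the test, grey points not passing and black lines at the medians. The medians run from -0.31 for the DREAM-repressed genes to 0.64 for squamous genes, and PLK2 and SFN of the p53 list and DRAM1 of the other targets lie above 4.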

How the data were processed

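The 8 spheroid RNA samples were read on Human Gene ST arrays (Affymetrix). The authors used RMA, run in Expression Console (version 1.1), which corrects background, quantile-normalizes arrays and summarizes probes. The deposited table holds 1 intensity per array for each of 33297 probesets on a linear scale, although log2 values had been assumed, so log2 was taken first. Quantile normalization removes any overall difference in signal. The number of arrays, 4 for each line, limits the precision.

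The annotation named 1 gene for 19460 probesets, several for 1754 and none for 12083. Identifiers of 19429 were found in RefSeq and 0 symbols changed. Each gene was read from the probeset with the highest mean, and each of the 31 measured genes had only 1. Following the study's filter, probesets whose mean fell in the bottom 25% for both lines were dropped (under a log2 signal of 5.11 in OVCAR-8R and of 5.16 in OVCAR-8), so that 25628 were kept.

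The lines were compared by limma version 3.58.1 (lmFit, then eBayes) under R 4.3.3, without a block. The titles call the arrays biological replicates without naming the step of separation, so the spread behind the p-values is that between these arrays and may be technical. The procedure was run on simulated data with noise drawn independently for each array. The OVCAR-8R arrays deviated in pairs, so that run does not check the standard errors under such a pattern. The members and lists were chosen with earlier results of these data known, and the paralogue ratios were chosen after the values were seen. All members are named, and from each related list up to 3 called genes per direction with the largest differences. Some other genes of these lists were named after their values were seen. Alternatives were other filters, thresholds, tests, scalings, array weights, the mean of a gene's probesets, a replicate block and leaving out arrays.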

Additional observations from a re-analysis of the deposited data

Results flagged for a closer look

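A single array stood far from the other arrays of its line in 7 of the 124 groups of 4 that were checked, by the gap to its nearest neighbor over the range of the group, where chance gives about 5%. OVCAR-8R array 4 was low for PERP (10.05, nearest 10.26) and for CITED2 (11.19, nearest 11.22), and array 3 was low for BCL2L11 (6.77, nearest 7.06). OVCAR-8 array 4 was low for TP73 (6.76, nearest 6.98) and high for AEN (9.11, nearest 8.94) and for DRAM1 (6.46, nearest 6.08), and array 1 was low for MECOM (6.82, nearest 7.20).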

How the results depend on the processing

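Over the 31 measured genes and 22 alternatives, 650 of 680 values kept their direction and side of the threshold. With an adjusted p alone, 13 of the p53 genes were lower, and 4396 genes were higher and 4776 lower of all genes. With treat, 832 genes were higher and 643 lower of all genes, and 4 and 3 of the p53 genes. The signs of differences near 0 changed for DDB2 under cyclic loess (0.042) and array weights (0.014). Without OVCAR-8R arrays 1 and 3, an alternative chosen after seeing the data, they changed for DDB2 (0.022) and GADD45G (-0.034), and without arrays 2 and 4 for PIDD1 (0.028). Leaving out each array in turn gave -0.050 to 0.033 for DDB2 and -0.037 to 0.053 for TP73, and counts of 5 to 6 p53 genes higher and 4 to 5 lower. Same-numbered arrays had deviations that correlated at 0.165, -0.323, -0.052 and 0.443. These values cannot show whether such arrays were handled together, since the deviations are tied to each other within each line. Deviations of OVCAR-8R arrays 1 and 3 correlated with those of OVCAR-8 array 2 at 0.353 and 0.276, and of array 4 at -0.467 and -0.337. For OVCAR-8R arrays 2 and 4 the values were -0.323 and -0.324 with OVCAR-8 array 2, and 0.383 and 0.443 with array 4. Values for OVCAR-8 arrays 1 and 3 lay between -0.144 and 0.165. The source of this pattern was not tested, and no model included it. With the replicate number as a block, the counts were again 6 and 4. The methods' t-test with Benjamini-Hochberg adjustment and 2-fold also called 6 and 4 p53 genes, and 1334 and 1328 of all genes. GADD45G and GDF15 had no value where probesets below the median in both lines were left out. Signals of the p53 genes were above the lowest quartile in both lines.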

Other observations

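Other programs that share targets with p53 were counted in the same way, where 8.37% of all genes were higher and 8.37% lower. FOXO targets overlap with p53 targets at the sestrins and CCNG2. Among 12 genes of FOXO factors and their targets, 3 were higher in OVCAR-8R (25%), 1 was lower (8.33%) and 8 did not pass. The median of this list was 0.60. KLF6, a zinc finger factor, had a log2 difference of 2.63 (standard error 0.08) and rose, as did TXNIP, an inhibitor of thioredoxin (1.60, 0.14), and CITED2, a transcriptional coregulator (1.39, 0.07), while BCL2L11, the death protein BIM, fell by 1.19 (0.12). Among 12 ATF4 stress genes, 1 was higher (8.33%) and 1 was lower (8.33%), about the share of all genes, with a median of 0.09. The higher one was CEBPB, a bZIP factor (1.52, 0.10), and the lower one ASNS, asparagine synthetase (-1.45, 0.07). Of 11 measured squamous genes that p63 regulates in stratified epithelium, 3 were higher (27.3%), 1 was lower (9.09%) and 7 did not pass. Their median was 0.64. S100A2, a calcium-binding protein, rose by 2.00 (0.16), DST, dystonin, by 1.84 (0.09) and the integrin gene ITGA6 by 1.60 (0.11), and the desmocollin gene DSC3 fell by 1.23 (0.12). The basal keratin genes KRT5 and KRT14, looked up after the results were seen, had differences of -0.08 and 0.13 (adjusted p = 0.507 and 0.397 from limma).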
